A study of Mus musculus with 20 samples.

Results

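The mitochondrially encoded genes were the 37 rows whose symbol starts with mt- among the 53599 gene symbols of both count tables. They comprised 13 protein-coding rows, 2 ribosomal RNA (rRNA) rows and 22 transfer RNA (tRNA) rows and were taken by symbol alone, whatever their values. RNA was sequenced from bulk liver of mice lacking PPARa (KO), a lipid-sensing nuclear receptor, and of mice expressing human PPARa (hPPARa). For 6 to 7 weeks from weaning, males and females drank water with 0.5% sucrose, either alone as vehicle or carrying 8 µM PFOA (perfluorooctanoic acid, a long-lived fluorinated surfactant). All ate a diet with 51.8% of its energy from carbohydrate, 33.5% from fat and 14.7% from protein. The 20 libraries formed 8 groups. The hPPARa groups held 3 female vehicle, 2 female PFOA, 2 male vehicle and 3 male PFOA libraries. The KO groups held 1 female vehicle, 3 female PFOA, 3 male vehicle and 3 male PFOA libraries. The sources used here do not give the promoter that drives the human receptor. Nor do the labels state that each sample is its own mouse, so the p-values cover the spread among these samples alone, and that spread may be technical.

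Mitochondrial DNA is transcribed from both strands as long precursors. The tRNAs sit between most of the larger genes, and their excision releases the rRNAs and mRNAs. The proteins are core subunits of respiratory complexes I, III and IV and of ATP synthase, which a liver cell uses to oxidize fuel and make ATP, and all other subunits and the factors that copy, transcribe and process mitochondrial DNA come from nuclear genes.

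Each library held 14973673 to 17953860 counts, so a share of a library is known to at most 0.0174 percentage points either way (95% Wilson interval, counting error only). Ppara, the targeted gene, had 15.2 to 39.7 CPM (counts of a gene relative to all counts of its library) in the hPPARa and 8.80 to 25.8 CPM in the KO libraries. Which stretch was deleted is not stated, and the row therefore cannot test the genotype labels. Other-sex transcripts were present in 3 KO libraries. The sum of 4 Y-linked genes was 11.7 CPM in KO female PFOA replicate 2 and 6.46 CPM in KO female vehicle replicate 1, against at most 0.99 CPM in the other 7 female libraries, and Xist was 30.9 CPM in KO male PFOA replicate 2, against at most 4.44 CPM in the other 10 male libraries. Results in KO are therefore also given without these 3 libraries, which leaves no KO female on vehicle and compares 2 male PFOA with 3 male vehicle libraries. The summed hepatocyte markers (11 genes, none at 0 in any group) were 84487 to 200121 CPM. The summed markers of cholangiocytes, the cells of the bile ducts, were 201 CPM in KO female vehicle replicate 1 and 15.6 to 65.3 CPM in the other libraries.

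Only part of the mitochondrial genome was represented in the counts. Of the 37 rows, 18 passed the filter on low counts within each genotype. These were 7 protein-coding rows (mt-Nd1, mt-Nd2, mt-Nd4, mt-Nd5 and mt-Nd6 of complex I, mt-Cytb of complex III and mt-Co1 of complex IV), both rRNA rows and 9 tRNA rows. Of the other 19, 10 had no count in any of the 20 libraries, and none exceeded 11 counts in a library. Over all libraries the protein-coding rows held 96.5% of the 32075115 mitochondrial counts, the rRNA rows 3.28% and the tRNA rows 0.192%. The sources used here do not say whether rRNA was removed or poly(A) RNA selected. The tRNA genes are 59 to 75 bases long, a size that standard RNA-seq libraries capture poorly.

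The missing rows lay mostly side by side. Between mt-Co1 and mt-Nd4 lie 11 rows, 6 of them protein-coding: mt-Co2 and mt-Co3 of complex IV, mt-Atp6 and mt-Atp8 of ATP synthase, and mt-Nd3 and mt-Nd4l of complex I. These 11 rows held 17 counts in all over the 20 libraries, with at most 3 in any library, while mt-Co1 on one side held at least 258326 and mt-Nd4 on the other at least 111227 counts in every library. In the GENCODE M21 transcripts (build GRCm38, where the files were made on GRCm39), 5 of the 6 missing protein-coding genes have a near-complete nuclear copy on chromosome 1, annotated as predicted genes. The copies of mt-Co2 (Gm28661, 681 bases), mt-Atp6 (Gm10925, 678), mt-Co3 (Gm28437, 783) and mt-Nd4l (Gm10222, 294) aligned without a mismatch, and that of mt-Nd3 (Gm28438, 345) with 1. Of all 50-base windows in these 5 genes, 98.0% to 100% had an exact match in a nuclear transcript, so reads of this length from them cannot be placed by sequence.

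The following 60-base stretches show how closely these copies match a missing and a counted gene, with capitals marking the bases at which gene and copy differ. The first pair is from bases 91 to 150 of mt-Co2, a missing gene, and is identical.
mt-Co2: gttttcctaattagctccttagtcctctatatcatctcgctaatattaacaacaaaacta
Gm28661: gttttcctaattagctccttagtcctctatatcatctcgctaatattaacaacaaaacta
The second pair is the start of mt-Nd3, also missing, with its sole mismatch (T3C, counted from the first base of the gene, mitochondrial base first).
mt-Nd3: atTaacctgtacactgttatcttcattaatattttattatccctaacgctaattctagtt
Gm28438: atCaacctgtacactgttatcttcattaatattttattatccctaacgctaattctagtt
The third pair is from bases 1063 to 1122 of mt-Co1, a counted gene whose end is copied on chromosome 1, with mismatch A1066T.
mt-Co1: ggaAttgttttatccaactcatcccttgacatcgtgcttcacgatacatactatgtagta
Gm29216: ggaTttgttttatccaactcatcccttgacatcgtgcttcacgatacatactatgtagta
The fourth pair is from bases 816 to 875 of mt-Co1 against its full-length copy on chromosome 2, with mismatches T837C and T846C.
mt-Co1: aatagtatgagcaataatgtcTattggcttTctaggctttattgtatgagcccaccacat
Gm13340: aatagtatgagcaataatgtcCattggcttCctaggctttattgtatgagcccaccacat

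A near-identical copy was thus not particular to the missing rows, since the 2 counted neighbours were copied in part. The end of mt-Co1 (bases 1063 to 1545) aligned to Gm29216 with 1 mismatch (A1066T), and the first 876 of the 1378 bases of mt-Nd4 aligned to Gm28439 without one. Of the 50-base windows of mt-Co1, 51.1% had an exact nuclear match, and of those of mt-Nd4 62.2%. The shares were 8.19% in mt-Nd2, 7.61% in mt-Nd5 and 1.04% in mt-Rnr2, and 0% in mt-Nd1, mt-Nd6, mt-Cytb and mt-Rnr1. The rows of the nuclear copies held few counts: Gm10925 had 28 to 61 counts in hPPARa and 0 to 20 in KO libraries, Gm28438 38 to 104 in all libraries and Gm10222 0. Gm13340, the copy of mt-Co1 on chromosome 2, held the most, at 97 to 217 counts. Not every empty row had a copy among the annotated transcripts, which alone were searched. No nuclear transcript matched a 50-base window of mt-Atp8, which lies inside the copied stretch, or of the tRNA rows at 0. The chromosome 1 copies of mt-Co2, mt-Atp6, mt-Co3 and mt-Nd3 keep the spacing of the mitochondrial genes, with a shift of 0 bases. A copy of mt-Atp8 or of a tRNA between them that is not annotated would not be seen here. The sources used here do not say how reads that map to several places were treated, and the part of this treatment in the empty rows was not tested.

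**Figure D1:**
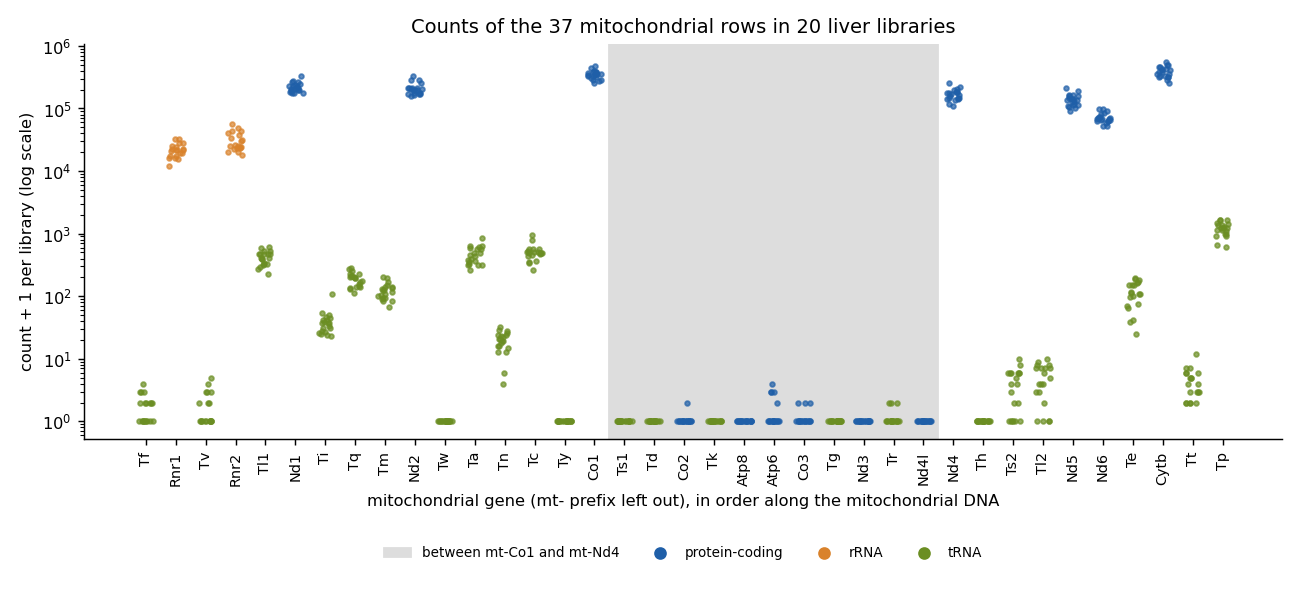
Counts plus 1 on a log axis for the 37 mitochondrial rows in their order along the mitochondrial DNA; each point is 1 of the 20 libraries, blue protein-coding, orange rRNA and green tRNA. The 11 rows in the grey band between mt-Co1 and mt-Nd4 have at most 3 counts in any library.

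Per kilobase of gene, the order of the 7 counted protein-coding rows was the same in both genotypes' means. mt-Cytb, the mitochondrially encoded subunit of complex III, was highest at 20621 ± 5106 CPM per kilobase (SD, n = 20), and ranked first in every library. mt-Nd1 (14098 ± 3037), mt-Co1 (13653 ± 2684) and mt-Nd2 (12207 ± 3306) followed within 1 SD of each other. mt-Nd6 (8322 ± 1815), the sole mRNA of the opposite strand, and mt-Nd4 (7438 ± 1886) also lay within 1 SD of each other. mt-Nd5 was lowest in every library at 4608 ± 1164 CPM per kilobase. It overlaps mt-Nd6 on the other strand, and no strand setting is stated for the counting, so reads where the pair overlaps cannot be told apart. Counted over windows without a nuclear match, mt-Co1 would be at 27941 and mt-Nd4 at 19692 CPM per kilobase, so their places in this order depend on how shared reads were counted. The rRNAs, usually the most abundant mitochondrial RNAs, were at 1376 ± 367 (mt-Rnr1, small ribosomal subunit) and 1184 ± 437 CPM per kilobase (mt-Rnr2, large subunit).

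The protein-coding rows held a smaller share of the library with PFOA in KO. In hPPARa the share was lower in both PFOA females than in any vehicle female, while the male groups overlapped, and the difference over both sexes did not pass. In hPPARa females it was 12.2%, 10.2% and 10.6% on vehicle and 6.34% and 6.62% on PFOA, so the groups were apart (11.02% ± 1.03, SD, n = 3, against 6.48% ± 0.204, n = 2). In hPPARa males it was 8.77% and 11.4% on vehicle and 12.4%, 9.28% and 8.72% on PFOA, and the groups overlapped (10.1% ± 1.85, n = 2, against 10.1% ± 1.98, n = 3). Averaged over the sexes the share was 2.24 percentage points lower in hPPARa (−4.54 in females, 0.05 in males), and an exact two-sided permutation test within sex gave p = 0.13 (adjusted p = 0.193 over 14 class measures). Without hPPARa male PFOA replicate 1 the difference was −2.81 points with p = 0.0333 by the same exact permutation. Of the 10 single omissions this was the 1 that passed, and the difference ranged from −2.90 to −1.59 points over them.

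In KO the protein-coding share was 8.58% in the 1 female vehicle library and 7.04%, 8.00% and 7.03% in the PFOA females. In KO males it was 10.7%, 13.7% and 10.01% on vehicle and 7.91%, 9.42% and 8.73% on PFOA. Every PFOA library lay below every vehicle library of its sex. The mean difference was −1.997 points, at the smallest p that 80 arrangements allow (exact permutation p = 0.0125, adjusted p = 0.035). Among the protein-coding shares, it was −1.80 points without KO male PFOA replicate 1 (exact permutation p = 0.075) and −3.14 points in males without the 3 libraries with other-sex transcripts, where 0.1 is the smallest p possible and the exact permutation gave 0.2. The hepatocyte marker sum was also lower on PFOA in each sex and genotype, at 120895 to 135170 against 158688 to 200121 CPM in hPPARa females, 100683 to 102026 against 126913 to 148857 CPM in hPPARa males, 87477 to 103283 against 114690 CPM in KO females and 84487 to 90051 against 103019 to 116644 CPM in KO males. Of its 11 genes 6 fell in hPPARa males (median log2 fold change −0.75), where the mitochondrial share overlapped between the groups, and 5 in hPPARa females (median −0.46). Of all 14400 genes tested, 418 were called lower in hPPARa males and 1133 in hPPARa females. Markers of other cells moved as well. Over all genes, 12.8% were called higher and 9.76% lower in hPPARa, and 7.41% and 6.36% in KO. With PFOA in hPPARa, 5 of 10 macrophage markers and 3 of 7 stellate cell markers fell and 5 of 8 endothelial markers rose. In KO, 5 of 5 cholangiocyte markers and 2 of 7 stellate cell markers fell, and 3 of 10 macrophage and 2 of 8 endothelial markers rose. Of 5 nuclear-retained transcripts 1 was called in each genotype. It was Snhg11, which rose in hPPARa (log2 fold change 1.70, adjusted p = 0.0015, edgeR) and KO (1.72, adjusted p = 0.0362). The median of the 5 was 0.18 in hPPARa and 0.77 in KO. Malat1 did not pass in hPPARa (−0.14, adjusted p = 0.56, edgeR) or KO (0.77, adjusted p = 0.0925). In hPPARa females 1 of the 5 was called higher and 1 lower, with a median of −0.26. The part of these markers in the shares was not tested, and in bulk liver fewer cells of a type and less RNA per cell cannot be told apart.

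**Figure D2:**
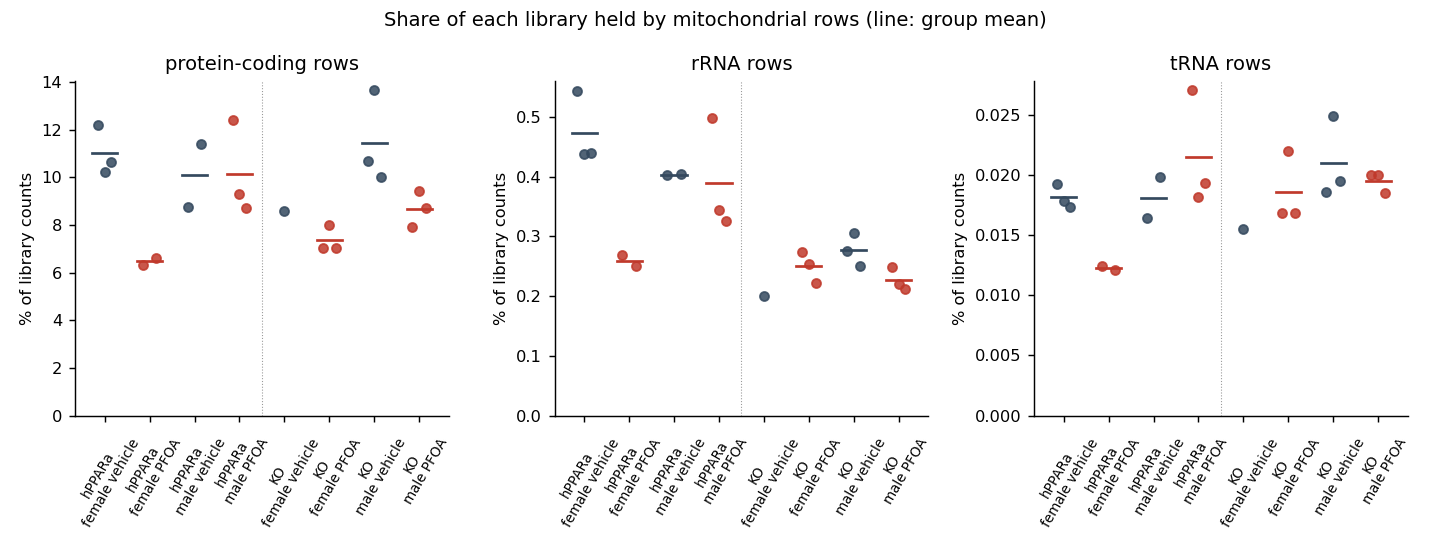
Percent of all counts in a library held by the protein-coding, rRNA and tRNA mitochondrial rows, by group; points are libraries (dark vehicle, red PFOA) and lines group means where n is above 1. The hPPARa female PFOA libraries are at 6.34% and 6.62% in the protein-coding panel, below all hPPARa vehicle libraries.

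Row by row, PFOA in hPPARa (sex as a term) lowered 3 of the 18 tested mitochondrial rows and raised 0 by quasi-likelihood tests in edgeR, with p-values adjusted over all genes (Benjamini-Hochberg). Across all genes 9.76% were called lower and 12.8% higher. mt-Nd4 fell by 0.62 on the log2 scale (SE 0.16, adjusted p = 0.0131), mt-Cytb by 0.60 (SE 0.16, adjusted p = 0.0165) and mt-Rnr2 by 0.65 (SE 0.20, adjusted p = 0.0307). The other protein-coding rows had log2 fold changes of −0.45 (mt-Nd6) to −0.25 (mt-Nd5) and did not pass. mt-Rnr2 was not called without hPPARa female vehicle replicate 1 or 3 or hPPARa male PFOA replicate 2 or 3. None of these 3 calls was made without hPPARa female PFOA replicate 1 or 2, whereas 10 rows were called lower without hPPARa male PFOA replicate 1 and 7 without hPPARa male vehicle replicate 1. Of the 5 tested rows of nuclear copies, 2 were called lower and 0 higher with PFOA in hPPARa. In hPPARa females 3 of 5 were called lower, against 7.87% of all genes, and in KO 0 of 6 were called.

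Within hPPARa females, 14 of 18 rows were called lower and 0 higher, where 7.87% of all genes were called lower. All 7 tested protein-coding rows fell, with log2 fold changes of −0.99 to −0.68 and a median of −0.78, against −0.02 over all genes. mt-Cytb was 30275, 26302 and 28557 CPM on vehicle and 14579 and 15868 CPM on PFOA. These groups were far apart, at a log2 fold change of −0.96 (SE 0.17, adjusted p = 0.00247, edgeR). mt-Nd4, a core subunit of complex I, was 13558, 11236 and 12424 CPM on vehicle and 6298 and 6722 CPM on PFOA, with a log2 fold change of −0.99 (SE 0.17, adjusted p = 0.0018, edgeR). mt-Co1, the catalytic core of cytochrome c oxidase, fell by 0.78 (adjusted p = 0.00765), mt-Nd6 by 0.87 (0.00451), mt-Nd5 by 0.75 (0.0228), mt-Nd1 by 0.70 (0.0444) and mt-Nd2 by 0.68 (0.0453), each value in parentheses an edgeR adjusted p. Both rRNA rows fell, mt-Rnr2 by 1.14 (adjusted p = 0.0014) and mt-Rnr1 by 0.63 (0.0282). Of the 9 tRNA rows, mt-Te, mt-Tl1, mt-Tm, mt-Tp and mt-Tq fell, by 0.81 to 0.93. Only 2 PFOA libraries carry these calls. Without hPPARa female PFOA replicate 1 only mt-Nd4 and mt-Rnr2 were called, without replicate 2 these with mt-Cytb and mt-Te, and without hPPARa female vehicle replicate 1 there were 8.

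Within hPPARa males 0 rows were called lower and 1 higher, mt-Te, where 5.30% of all genes were called higher. The 7 protein-coding rows had log2 fold changes of −0.26 to 0.26. Tested directly, the effect in males minus that in females was 0.64 to 1.01 on the log2 scale for the 7 protein-coding rows. None passed (adjusted p = 0.269 to 0.491, edgeR), with 6 of the 7 at an unadjusted edgeR p under 0.05. A difference between the sexes in these rows is thus not shown by edgeR at this sample size. 1 row of 18, mt-Te, passed this test as higher, against 0.0417% of all genes. DESeq2 called 4 rows, 2 of them protein-coding (mt-Nd5 and mt-Nd6). The fit without the low-count filter called 9, 4 of them protein-coding, and all these calls were higher.

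In KO, PFOA lowered 3 of 18 rows and raised 0, where 6.36% of all genes were called lower and 7.41% higher. mt-Cytb fell by 0.52 on the log2 scale (SE 0.13, adjusted p = 0.0174), mt-Nd4 by 0.50 (SE 0.14, adjusted p = 0.0351) and mt-Tq, the glutamine tRNA, by 0.68 (SE 0.17, adjusted p = 0.019), all by edgeR. Without the 3 libraries with transcripts of the other sex these rows and mt-Tl1 were called lower, with mt-Cytb at −0.72. Of the 3, the call of mt-Cytb was made without every single library. That of mt-Nd4 was lost without any one of 6 libraries: KO male vehicle replicates 1 and 2, KO male PFOA replicates 1, 2 and 3 and KO female PFOA replicate 3 (adjusted p up to 0.0933, edgeR). That of mt-Tq was lost without KO male PFOA replicate 2 or 3 (adjusted p up to 0.0589). Leaving out KO female vehicle replicate 1, which has the high cholangiocyte markers, leaves no vehicle female, so only males inform the PFOA effect. That fit called 6 rows lower, the same 6 as in KO males below.

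In KO males 6 of 18 rows were called lower, against 3.46% of all genes: mt-Cytb, mt-Nd4, mt-Rnr2, mt-Tq, mt-Tm and mt-Ti. mt-Cytb was 31870, 36993 and 28170 CPM on vehicle and 18647, 22993 and 23194 CPM on PFOA, groups that did not overlap (log2 fold change −0.66, SE 0.14, adjusted p = 0.0136, edgeR). Of these, mt-Cytb, mt-Nd4 and mt-Tq were also called without the 3 libraries. Without any single library, mt-Cytb and mt-Tq were called in each case, and with KO male vehicle replicate 2 or KO male PFOA replicate 3 left out they were the only 2. With KO male vehicle replicate 1 or KO male PFOA replicate 1 left out, mt-Rnr2 was called beside them. In KO females 2 rows were called higher, mt-Rnr1 (0.91, SE 0.17, adjusted p = 0.00879, edgeR) and mt-Ta (0.92, SE 0.22, adjusted p = 0.0336), against 2.33% of all genes. This compares 3 PFOA libraries with 1 vehicle library that is itself among the 3 and is assumed to vary like the other groups. mt-Rnr1 was called with any 1 other library left out, and mt-Ta was not called without KO female PFOA replicate 2 or KO male PFOA replicate 2. The PFOA effect differed between the sexes of KO in 0 of 18 rows by edgeR (7 at an unadjusted p under 0.05, and 1 by DESeq2), where 0.241% of all genes were called either way.

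**Figure D3:**
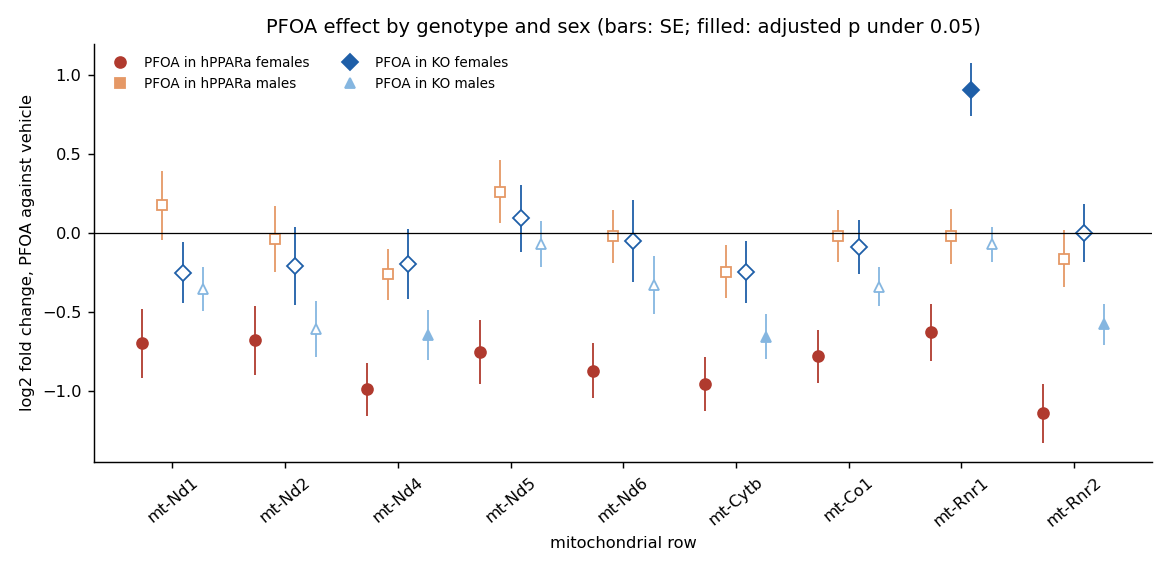
Log2 fold change of PFOA against vehicle for the 7 tested protein-coding and 2 rRNA rows in each genotype and sex; bars are SE and filled symbols passed an adjusted p of 0.05 by edgeR. All 9 symbols of hPPARa females are filled and lie between −1.14 and −0.63, and those of hPPARa males are open.

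No tested mitochondrial row differed between the genotypes in its response to PFOA by edgeR (0 of 19 in the joint model, 1 at an unadjusted p under 0.05, 0 by DESeq2), where 1.17% of all genes did. For mt-Cytb the KO effect minus the hPPARa effect was 0.07 (SE 0.21, adjusted p = 0.916) and for mt-Nd4 0.12 (SE 0.22, adjusted p = 0.864). These p-values do not show that the genotypes respond alike.

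The balance between the rows shifted in both genotypes. mt-Rnr1 and mt-Rnr2 lie side by side, separated by a tRNA, and are read from 1 precursor. The ratio of mt-Rnr1 to mt-Rnr2 counts rose with PFOA. In hPPARa females it was 0.590, 0.646 and 0.644 on vehicle and 0.884 and 0.897 on PFOA, and in hPPARa males 0.615 and 0.605 on vehicle and 0.680, 0.646 and 0.690 on PFOA. In KO females it was 0.505 in the vehicle library and 0.961, 0.940 and 0.938 on PFOA, and in KO males 0.666, 0.531 and 0.659 on vehicle and 0.854, 0.809 and 0.961 on PFOA. Within each sex every PFOA library was above every vehicle library. The mean difference was 0.163 in hPPARa (exact permutation p = 0.01, adjusted p = 0.035) and 0.349 in KO (exact permutation p = 0.0125, adjusted p = 0.035), both the smallest p possible. It was 0.289 in KO males without the 3 libraries, where the exact permutation gave its smallest p of 0.1. Without KO female vehicle replicate 1 no KO permutation of a share or ratio can give a p below 0.1. Left out one at a time, the hPPARa libraries gave 0.154 to 0.170 and the KO libraries 0.256 to 0.365. This ratio was chosen after its values were seen.

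Among the 7 protein-coding rows, mt-Cytb took a smaller part of the counts on PFOA. In hPPARa females its part was 24.9% to 26.9% on vehicle and 23.0% and 23.95% on PFOA, and in hPPARa males 24.8% and 24.97% on vehicle and 20.7% to 22.6% on PFOA. The change was −2.71 percentage points in hPPARa (exact permutation p = 0.01, adjusted p = 0.0438 over 14 measures) and −2.47 points in KO (exact permutation p = 0.0125, adjusted p = 0.0438). mt-Nd4 also took a smaller part in hPPARa, by 1.37 points (exact permutation p = 0.01, adjusted p = 0.0438), while in KO the change was −0.78 points (exact permutation p = 0.075). mt-Nd5, the last complex I gene on its strand before mt-Cytb, took a larger part in KO, by 1.96 points (exact permutation p = 0.0125, adjusted p = 0.0438), and in hPPARa the change was 1.25 points (exact permutation p = 0.12). Without hPPARa female vehicle replicate 1 the latter was 1.63 points (exact permutation p = 0.0167). That was the 1 of 10 single omissions that passed, and over them the change in hPPARa ranged from 0.84 to 1.63 points. Parts of a whole are not independent of each other. In KO males without the 3 libraries the changes were −3.27 points for mt-Cytb and 2.52 for mt-Nd5, both at the smallest exact permutation p of 0.1. These parts were also chosen after the data were seen.

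**Figure D4:**
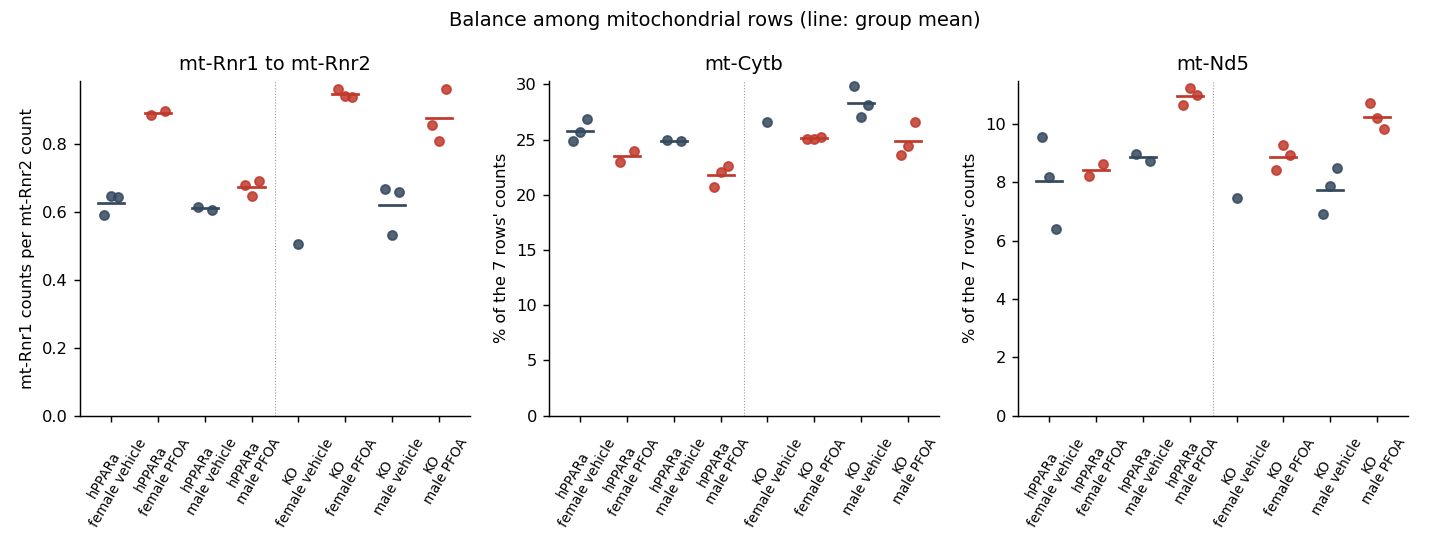
Counts of mt-Rnr1 per mt-Rnr2 count, and the percent of the counts of the 7 tested protein-coding rows held by mt-Cytb and by mt-Nd5, by group; points are libraries (dark vehicle, red PFOA) and lines group means where n is above 1. In the left panel every PFOA library lies above every vehicle library of its genotype and sex.

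The tRNA rows together held 1.58 to 1.87 counts per 1000 protein-coding counts in the hPPARa vehicle libraries and 1.83 to 2.21 on PFOA. In KO they held 1.74 to 1.94 on vehicle and 2.12 to 2.74 on PFOA. The rise was 0.280 in hPPARa (exact permutation p = 0.02, adjusted p = 0.0467) and 0.568 in KO (exact permutation p = 0.0125, adjusted p = 0.035). Without hPPARa female PFOA replicate 1 it was 0.247 with p = 0.05 by the exact permutation, and in KO males without the 3 libraries 0.492 at the smallest exact permutation p of 0.1. As a share of the library the tRNA rows did not pass (exact permutation p = 0.63 in hPPARa and 0.663 in KO). The single rows did not move alike. Log2 fold changes of the 9 tested rows ran from −0.46 to 0.19 in hPPARa and from −0.83 to 1.04 in KO. In KO mt-Tn, mt-Tc, mt-Ta, mt-Te and mt-Tp had positive values. There mt-Tq, mt-Tl1, mt-Tm and mt-Ti were at −0.83 to −0.50, below the protein-coding median of −0.32. The rise is thus one of the sum and not of each row. The 4 tRNA rows of highest level were mt-Tp (proline), mt-Tc (cysteine), mt-Ta (alanine) and mt-Tl1 (a leucine tRNA), at 34.3 to 111, 16.2 to 58.3, 16.0 to 47.7 and 12.7 to 38.3 CPM. Of the 9 tested tRNA rows mt-Tp, mt-Tc, mt-Ta, mt-Te, mt-Tn and mt-Tq are read from the strand opposite to most mRNAs, so that without a stated strand setting antisense reads of the neighbours could count here.

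mt-Te, the glutamate tRNA between mt-Nd6 and mt-Cytb, was the row whose response differed between the sexes of hPPARa, and its 69 bases are shown for that reason, from the GENCODE M21 transcripts and with no base singled out.
mt-Te: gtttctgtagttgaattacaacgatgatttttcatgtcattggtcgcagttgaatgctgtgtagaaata
In hPPARa females it was 11.8, 10.1 and 9.83 CPM on vehicle and 5.38 and 6.12 CPM on PFOA. In hPPARa males it was 4.54 and 4.19 CPM on vehicle and 10.99, 9.44 and 7.02 CPM on PFOA. The groups thus did not overlap in either sex and moved in opposite directions. The log2 fold change was −0.93 in females (SE 0.20, adjusted p = 0.00688) and 1.01 in males (SE 0.21, adjusted p = 0.00853), and the male effect minus the female effect was 1.94 (SE 0.29, adjusted p = 0.0214), all by edgeR. The call in males was lost without either male vehicle library (adjusted p up to 0.0922, edgeR). On vehicle mt-Te was lower in males by 1.28 on the log2 scale (adjusted p = 0.00463), the 1 row of 18 called lower there, against 1.49% of all genes. With hPPARa male vehicle replicate 2 left out it did not pass (adjusted p = 0.0631). The difference between the sexes stayed between 1.80 and 2.10, but its adjusted p rose to between 0.0521 and 0.149 without hPPARa female vehicle replicate 1 or without any 1 library of hPPARa male vehicle or female PFOA. In KO the libraries of a group scattered more, from 1.52 to 9.13 CPM in vehicle males and from 2.35 to 11.2 CPM in PFOA males, and mt-Te had a log2 fold change of 0.22 (SE 0.60, adjusted p = 0.846).

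On vehicle the rRNA rows were lower in KO than in hPPARa livers, while the protein-coding rows did not differ beyond their spread. mt-Rnr1 was 2015, 1716 and 1719 CPM in hPPARa females and 1534 and 1524 CPM in hPPARa males, against 674 CPM in the KO female and 1101, 1058 and 994 CPM in KO males. mt-Rnr2 was 3416, 2657 and 2670 CPM in hPPARa females and 2493 and 2520 CPM in hPPARa males, against 1335 CPM in the KO female and 1652, 1992 and 1508 CPM in KO males. The genotypes did not overlap in either row. mt-Rnr1 was lower by 1.06 on the log2 scale (SE 0.13, log2 fold change −1.06, adjusted p = 0.000113) and mt-Rnr2 by 0.91 (SE 0.14, log2 fold change −0.91, adjusted p = 0.00095), both by edgeR. Both calls held in all 23 alternative fits. None of these fits leaves out KO female vehicle replicate 1, the only KO female on vehicle, without which this comparison cannot be run. The sexes were weighted equally, so this 1 library stood for all KO females. Group means of mt-Rnr1 were 1816 (hPPARa) against 674 CPM (KO) in females and 1529 against 1051 CPM in males. Those of mt-Rnr2 were 2915 against 1335 CPM in females and 2507 against 1718 CPM in males. The gap was thus smaller in males for both rows. In all, 4 of 19 rows were called, each of them lower, against 4.52% of all genes called either way. The other 2 were mt-Tc (−0.66, adjusted p = 0.0344, edgeR) and mt-Tn (−1.56, adjusted p = 0.0476), and neither was stable: of the 23 alternative fits mt-Tc was called in 18 and mt-Tn in 7. mt-Tc was lost without hPPARa female vehicle replicate 2 or 3, hPPARa male vehicle replicate 1 or 2, or KO male vehicle replicate 3, and mt-Tn by DESeq2 and without most single libraries. The 7 protein-coding rows had log2 fold changes of −0.32 to −0.05 (adjusted p = 0.171 to 0.867, edgeR).

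Against their own mRNAs, the rRNA rows held 35.5 to 45.9 counts per 1000 protein-coding counts in hPPARa vehicle libraries and 22.3 to 25.8 in KO vehicle libraries. On PFOA they held 37.02 to 42.4 in hPPARa and 23.3 to 38.9 in KO libraries, where the ranges overlapped. The PFOA effect on this measure was −2.66 in hPPARa (exact permutation p = 0.27) and 6.35 in KO (exact permutation p = 0.1375), and neither passed. As a share of the library, the rRNA rows had a PFOA effect of −0.114 percentage points in hPPARa (exact permutation p = 0.07) and −0.000327 points in KO (exact permutation p = 0.975). The genotypes stand in separate tables, so genotype and table cannot be told apart. Of 5 nuclear-retained transcripts, 1 was called higher and 1 lower in KO on vehicle, with a median log2 fold change of 0.15. The lower one was Malat1 (log2 fold change −1.11, adjusted p = 0.0461, edgeR). Their sum was 691 to 879 CPM in hPPARa and 511 to 1170 CPM in KO vehicle libraries, with none at 0 in any group. Its part in the rRNA result was not tested.

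**Figure D5:**
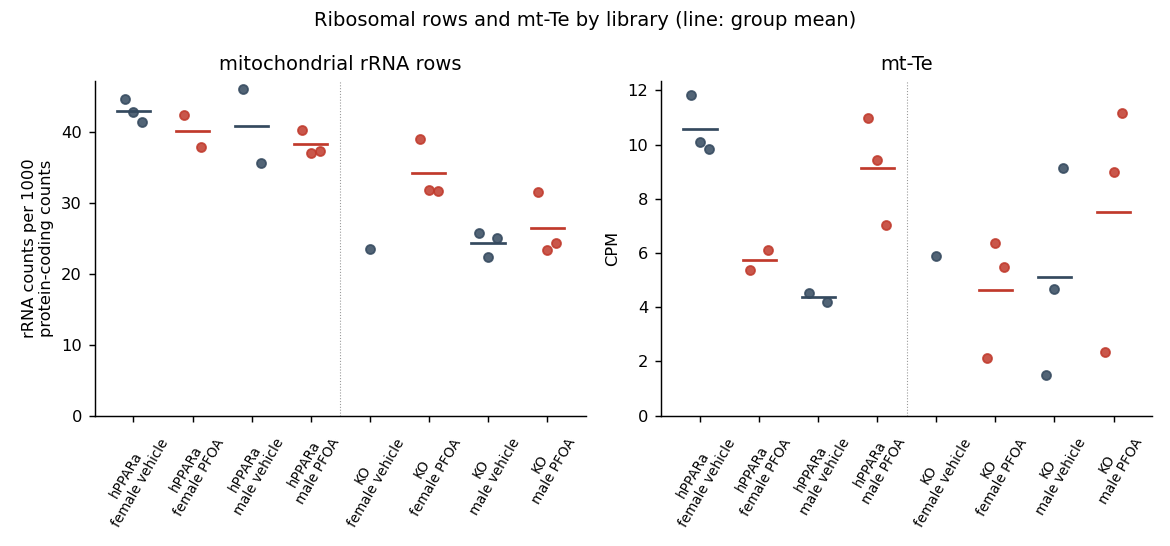
Counts of the 2 mitochondrial rRNA rows per 1000 protein-coding mitochondrial counts (left) and CPM of mt-Te (right), by group; points are libraries (dark vehicle, red PFOA) and lines group means where n is above 1. KO vehicle libraries lie at 22.3 to 25.8 and hPPARa vehicle libraries at 35.5 to 45.9 in the left panel, and in the right panel mt-Te is lower on PFOA in hPPARa females and higher in hPPARa males.

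The nuclear genes that serve mitochondrial DNA were read beside these rows in lists, to be set against the 12.8% of all genes called higher and 9.76% called lower in hPPARa, and 7.41% and 6.36% in KO. Of the factors of mitochondrial DNA maintenance and transcription, 7 of 25 tested rose and 0 fell with PFOA in hPPARa, and 2 of 26 rose and 0 fell in KO, the latter near the share of all genes. Tymp, which breaks down thymidine, rose by log2 1.17 in hPPARa (adjusted p = 7.84e-05) and 0.83 in KO (adjusted p = 0.00593), and Top1mt, the mitochondrial type I topoisomerase, by 0.49 (adjusted p = 0.00333) and 0.38 (adjusted p = 0.0404). Slc25a33, a mitochondrial pyrimidine nucleotide carrier, rose by 1.04 in hPPARa (adjusted p = 0.00117). The core transcription machinery did not pass. Tfam, which packages mitochondrial DNA and starts its transcription, had log2 fold changes of 0.20 (adjusted p = 0.112) and 0.12 (adjusted p = 0.39), Polrmt, the RNA polymerase, −0.16 (0.375) and −0.22 (0.161), and Tfb2m, its initiation factor, 0.30 (0.166) and 0.22 (0.237), in hPPARa and KO in this order and by edgeR throughout.

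Of the RNA processing and stability genes, 5 of 32 rose and 0 fell in hPPARa, and 2 of 32 rose and 0 fell in KO, both near the share of all genes. Those called included Trit1, a tRNA-modifying enzyme (0.63, adjusted p = 0.00127), and Fastkd3 (0.49, adjusted p = 0.0358) in hPPARa. Nsun3, which modifies the mitochondrial methionine tRNA, rose in hPPARa (0.37, adjusted p = 0.0383) and KO (0.55, adjusted p = 0.0126), and Rexo2, an oligoribonuclease, rose in KO (0.51, adjusted p = 0.0127, edgeR). The regulators of mitochondrial biogenesis had 1 member higher and 1 lower of 13 in hPPARa, and 2 higher and 1 lower of 12 in KO. Ppargc1a, the coactivator PGC-1α, fell by 0.75 in hPPARa (adjusted p = 0.0195) and by 0.68 in KO (adjusted p = 0.0358), and Esrrg, a nuclear receptor that works with it, rose by 2.23 in hPPARa (adjusted p = 0.0179, edgeR) at a mean of 1.01 CPM over all libraries. In KO, Nrip1, a corepressor, rose by 0.51 (adjusted p = 0.0031) and Gabpa, a transcription factor of respiratory genes, by 0.32 (adjusted p = 0.0204, edgeR).

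Genes of the mitochondrial ribosome, which carries both rRNAs, numbered 6 higher and 2 lower of 78 in hPPARa and 0 higher and 1 lower of 79 in KO, each below the share of all genes. They included Mrps18b (0.68, adjusted p = 0.000374), Mrpl45 (0.51, adjusted p = 0.0101) and Mrpl14 (0.29, adjusted p = 0.0176) in hPPARa and Mrpl55 (−0.37, adjusted p = 0.0268, edgeR) in KO. The nuclear subunits of oxidative phosphorylation include complex II, which holds none of the 13 encoded proteins. They numbered 6 higher and 4 lower of 83 in hPPARa and 0 higher and 6 lower of 83 in KO. These counts were below the shares of all genes except for the lower calls in KO, which were near theirs. In hPPARa Sdha of complex II rose by 0.44 (adjusted p = 0.0175), and Ndufa4l2 fell by 0.82 (adjusted p = 0.0205, edgeR). In KO Ndufa4l2 fell by 0.68 (adjusted p = 0.0253), Uqcrc1 of complex III by 0.33 (adjusted p = 0.0266) and Cox5b of complex IV by 0.31 (adjusted p = 0.0418, edgeR). The median log2 fold change of the nuclear subunits was −0.04 in hPPARa and −0.12 in KO, against −0.01 and −0.02 over all genes, and that of the 7 mitochondrial protein-coding rows was −0.40 and −0.32.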

How the data were processed

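Counts per gene for 20 bulk liver libraries (RNA integrity number above 7, per the labels' protocols) were deposited by the authors in 2 tables, 1 per genotype, without normalization. Per the submitters' processing notes, which give no roles, the build was GRCm39 and the tools were STAR 2.5.3, FastQC 0.11.5, edgeR 3.36.0, featureCounts 1.6.1, cutadapt 1.15 and R 4.1.0. No annotation, strand setting or treatment of multi-mapping reads is stated there.

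The whole tables were tested with edgeR 4.0.16 (R 4.3.3): TMM factors (0.894 to 1.08), the default low-count filter, robust quasi-likelihood fits and Benjamini-Hochberg adjustment over all genes, threshold 0.05. The SE is the size of the log2 fold change over the square root of F. Levels are plain CPM. Exposure was permuted exactly within sex for shares and ratios. Gene order, lengths, strands, nuclear copies and sequences came from GENCODE M21 (GRCm38). Only the fits of PFOA in hPPARa and in KO with sex as a term were run on simulated data. The fits within a sex, the differences between effects and the joint model were not. Protein-coding and rRNA rows were named with values, tRNA rows by range, with the 4 of highest mean CPM and those called with PFOA, and of each nuclear list up to 3 called members with the smallest adjusted p, plus Tfam, Polrmt, Tfb2m and Ppargc1a. One gene that this rule names is not reported here. DESeq2 1.42.0, other scaling factors, no filter, a replicate block and leaving out libraries were tried. Members and lists were chosen with earlier results of these data known.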

Additional observations from a re-analysis of the deposited data

Results flagged for a closer look

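The response of mt-Te, the mitochondrial glutamate tRNA, to PFOA differed between the sexes of hPPARa mice by a test of the difference itself. The male effect minus the female effect was 1.94 on the log2 scale (edgeR adjusted p = 0.0214), with a log2 fold change of −0.93 in females and 1.01 in males. The row is 69 bases long and held 24 counts or more in each library.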

How the results depend on the processing

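Other scaling factors (RLE, or factors from nuclear rows) changed no count of called mitochondrial rows. DESeq2 called 6 rows for PFOA in hPPARa, 7 in KO, 4 for PFOA by sex in hPPARa and 1 for PFOA by sex in KO. Without the low-count filter these counts were 8, 9, 9 and 3, and there were 2 in hPPARa males, 4 in KO females, 10 in KO males and 2 for PFOA by genotype. In KO males DESeq2 called 9 rows, against 6 in the reported fit. For KO against hPPARa on vehicle, DESeq2 called 3 rows and the fit without the filter 6, against 4 in the reported fit. No pairing of samples by replicate number was seen: deviations of same-numbered vehicle and PFOA libraries correlated at −0.04 to 0.10 over 7 pairs. KO females could not be checked, and pairing was not tested. With a replicate block 6 rows were called for PFOA in KO against 3, and the other counts moved by less than 1.5 times. In KO females the called rows changed under this block: mt-Te, in place of mt-Ta, was called beside mt-Rnr1 and in the opposite direction.

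With single libraries left out, called rows ranged from 0 to 10 for PFOA in hPPARa, 1 to 6 in KO, 2 to 14 in hPPARa females, 0 to 2 in hPPARa males, 1 to 3 in KO females, 2 to 7 in KO males, 2 to 4 for KO against hPPARa, and 0 to 1 for PFOA by sex in hPPARa and for male against female. The protein-coding share differences ranged from −2.90 to −1.59 points in hPPARa and −2.77 to −1.44 in KO. The rRNA share differences ranged from −0.141 to −0.0966 points in hPPARa and −0.0498 to 0.00674 in KO, and the tRNA share differences from −0.00261 to −0.000367 and −0.00144 to 0.0018. The differences in counts per 1000 protein-coding counts ranged from −5.27 to −0.057 (hPPARa) and 2.01 to 7.11 (KO) for rRNA and from 0.247 to 0.321 and 0.426 to 0.602 for tRNA. Without the 3 KO libraries holding other-sex transcripts, the KO share differences were −3.14 (protein-coding), −0.0464 (rRNA) and −0.0017 points (tRNA), the last with its sign turned. The fits of KO against hPPARa, of KO females and of PFOA by sex in KO could not be run without them, because no KO female vehicle library is left.

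Of 200 log2 fold changes of mitochondrial rows (1 per row and comparison), 48 turned sign in at least 1 alternative, and 0 of these had passed in the reported fit. They included mt-Te with PFOA in hPPARa (main value 0.0058; −0.29 to 0.32 over single omissions, below 0 in 4), mt-Nd5 in KO (main value −0.017; −0.079 to 0.080, above 0 in 4) and mt-Rnr1 in KO (main value 0.23; −0.076 without KO female vehicle replicate 1 to 0.30, and −0.043 without the 3 libraries). A share that turned was the part of mt-Nd6 in hPPARa (main value −0.078 points; 0.131 when hPPARa male vehicle replicate 1 was omitted, 0.00904 when the second PFOA female was). The cause of these changes was not tested. Counting error is small for the protein-coding rows, and a count of 0 allows up to 0.167 to 0.200 CPM (3 counts).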
